A study of Homo sapiens with 8 samples.

Results

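The genes described here bring glucose into the cell and carry it through the first steps of glycolysis: 6 facilitative glucose transporters of the SLC2A family (SLC2A1, SLC2A3, SLC2A6, SLC2A8, SLC2A10 and SLC2A12), 3 hexokinases (HK1, HK2 and HK3) and glucose-6-phosphate isomerase (GPI). They were chosen by name, and all 10 were listed among the 25369 genes of the deposited expression table. RNA was sequenced from EPC2-hTERT cells, a telomerase-immortalized human esophageal keratinocyte line labelled as wild type, so a single cell line stands for the epithelium. All cultures were grown on membranes, kept for 5 days in medium with 1.8 mM CaCl2 and then for 4 days at an air-liquid interface (ALI), where the cells stratify. One group of 4 cultures received DMSO vehicle for 18 h, and the other group of 4 received 1 mM dimethyloxalylglycine (DMOG) for 18 h. No label states whether the replicates were grown separately. The p-values therefore describe the spread of these libraries, which may be technical.

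DMOG resembles 2-oxoglutarate and inhibits the prolyl hydroxylases, which mark the alpha subunits of hypoxia-inducible factor (HIF) for degradation. Glucose enters most cells down its gradient through SLC2A transporters (GLUT proteins), and hexokinases then phosphorylate it, which holds it in the cell. GPI converts the resulting glucose 6-phosphate into fructose 6-phosphate, and SLC2A1, SLC2A3, HK2 and GPI are known targets of HIF in many cell types. The comparison asked how expression changes in esophageal epithelium treated with DMOG. Hydroxylase activity and HIF protein were not measured in these RNA data.

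Values are RPKM, reads scaled by gene length in kilobases and by the reads of the library, so levels can be compared between genes. Between libraries the median of all tested genes was lower with DMOG on this scale (log2 fold change -0.18 over 8 libraries, -0.26 over the 6 defined below), and tests were therefore run after scaling by median-ratio factors. Libraries held 31245695 to 39931833 reads, and 10558 to 11242 genes reached 1 RPKM in each. All 8 squamous epithelium markers examined were at 1 RPKM or more, with summed levels of 10523 to 18726 RPKM with vehicle and 14407 to 14895 with DMOG. KRT5 and KRT14 make up most of that sum, and single markers varied: IVL had 218 to 565 RPKM with vehicle and 343 to 909 with DMOG, TP63 54.9 to 64.6 and 36.5 to 57.7, and CDH1 112 to 159 and 74.4 to 130. Within each group the markers KRT13 and KRT4 varied widely. KRT13 had 272 to 1376 RPKM with vehicle and 275 to 1340 with DMOG, and KRT4 416 to 1459 and 242 to 1054. Their part in the results on glucose genes was not tested. All 5 fibroblast and 4 melanocyte markers were under 1 RPKM in every library, as were 3 of 4 endothelial and 4 of 5 leukocyte markers. The exceptions were VWF (0.862 to 1.95 RPKM) and CD68, a lysosomal protein that is not restricted to leukocytes (42.7 to 93.1 RPKM). PTPRC, which defines leukocytes, reached at most 0.00395 RPKM. In a bulk sample fewer cells of a type and less RNA per cell cannot be told apart.

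One library stood apart from its label. Over the 11122 genes tested, the root-mean-square log2 distance from the vehicle mean was 0.184 for the library labelled DMOG replicate 2, against 0.193 to 0.350 for the vehicle libraries, each measured from the mean of the other 3, and 0.455 to 0.763 for DMOG replicates 1, 3 and 4. In that library 72.2% of the tested genes lay inside the range of the vehicle libraries, against 22.9% to 36.8% in the other DMOG libraries. The authors' deposited table of fold changes rests on replicates 1, 3 and 4 of each group, and the sources used here give no reason. Fold changes of the tested genes of the set chosen by name are therefore given both over all 8 libraries and over those 6. For genes of the further lists both are given where a gene was called over the 6, and otherwise those over the 6 only. The p-values over the 6 do not allow for the choice of libraries.

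HIF binds DNA at the core letters ACGTG or GCGTG, so the sequence around the start of HK2, GPI and SLC2A1, which led the calls over 6 libraries, is shown first. RefSeq promoter windows (GRCh38.p14, 250 bases before to 30 after a start) were at hand for 9 of the 10 genes, 16 windows in all, and not for SLC2A3. Capitals mark ACGTG and GCGTG on either strand (CACGT and CACGC where the core lies on the other strand); a CACGTG holds ACGTG on both strands and is counted as 1 place.
HK2, chr2:74833877-74834156, plus strand: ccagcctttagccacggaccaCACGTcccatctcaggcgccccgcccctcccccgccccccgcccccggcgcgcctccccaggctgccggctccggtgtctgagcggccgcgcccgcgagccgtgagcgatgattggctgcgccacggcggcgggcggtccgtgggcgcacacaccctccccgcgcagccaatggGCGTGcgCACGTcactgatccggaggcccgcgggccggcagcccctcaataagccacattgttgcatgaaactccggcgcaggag
HK2, chr2:74834920-74835199, plus strand: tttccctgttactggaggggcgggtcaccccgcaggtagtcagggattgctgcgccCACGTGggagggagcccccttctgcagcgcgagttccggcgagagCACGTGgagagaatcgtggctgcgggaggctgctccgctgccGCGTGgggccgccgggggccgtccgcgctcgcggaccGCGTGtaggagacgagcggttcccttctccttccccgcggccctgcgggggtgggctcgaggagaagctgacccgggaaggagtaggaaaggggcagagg
GPI, chr19:34364742-34365021, plus strand: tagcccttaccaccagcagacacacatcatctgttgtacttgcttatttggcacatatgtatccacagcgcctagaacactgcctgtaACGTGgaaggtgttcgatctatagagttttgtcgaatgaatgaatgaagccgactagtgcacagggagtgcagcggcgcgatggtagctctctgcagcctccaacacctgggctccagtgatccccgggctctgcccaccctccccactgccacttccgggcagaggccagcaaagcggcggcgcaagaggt
SLC2A1, chr1:42958839-42959118, minus strand: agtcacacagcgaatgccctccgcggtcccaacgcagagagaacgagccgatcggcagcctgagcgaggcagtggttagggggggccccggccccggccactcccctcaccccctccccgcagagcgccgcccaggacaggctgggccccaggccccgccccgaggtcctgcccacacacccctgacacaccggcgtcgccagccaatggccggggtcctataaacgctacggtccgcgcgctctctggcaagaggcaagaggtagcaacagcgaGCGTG

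The first HK2 window held 3 places with a core. Its ACGTG matches began 229 and 48 bases before the start, and its GCGTG match 55 bases before. The second HK2 window held 4 places, of which 2 were CACGTG. Of all 35116 RefSeq windows of this length, 7.03% held 3 or more places and 2.67% held 4 or more, while 46.3% held at least 1 and 0.638% held 2 or more CACGTG. The HK2 windows were 74.3% and 70.7% G or C, and the shares over all windows were not matched for base content. The GPI window had a single ACGTG, 162 bases before the start, and the SLC2A1 window a single GCGTG, 25 bases after it. Among the 7 HK1 windows, 2 had a single GCGTG each and 5 had no core. SLC2A6 had 3 GCGTG places and SLC2A10 had 1 ACGTG, whereas the windows of SLC2A8, SLC2A12 and HK3 had none. A match describes the letters in a window and is not a measured binding site.

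With vehicle, the stratified cells carried mostly SLC2A1, HK1 and GPI. SLC2A1, the main basal glucose transporter of keratinocytes, had 193 ± 33.0 RPKM (SD, n = 4), higher than 97.4% of the genes tested. HK1, the hexokinase that most tissues express steadily, followed with 46.6 ± 0.447 RPKM, and GPI with 32.0 ± 2.48 RPKM. SLC2A3, a transporter with high affinity for glucose, had 10.6 ± 3.28 RPKM and HK2, the inducible hexokinase, 9.58 ± 2.43 RPKM. The ranges of these last genes overlapped, so their order is not resolved. SLC2A8, a transporter of intracellular membranes, came next with 4.65 ± 0.464 RPKM. SLC2A6, a transporter of lysosomes, had 1.95 ± 0.590 RPKM and SLC2A12 1.26 ± 0.311 RPKM, again with overlapping ranges. All other neighbours in this order were separated by gaps between their vehicle ranges.

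SLC2A10 and HK3 lay at or near the limit of detection and did not pass the filter of 1 RPKM or more in at least 4 libraries. SLC2A10 had 8 to 27 reads per library, or 0.0762 to 0.183 RPKM with vehicle and 0.0605 to 0.106 with DMOG, and these ranges overlapped. HK3, a hexokinase known from leukocytes, had 1 read in DMOG replicate 2 and 0 in the other 7 libraries, where a count of 0 allows up to 3 reads by counting error alone. The other 8 genes were tested.

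**Figure D1:**
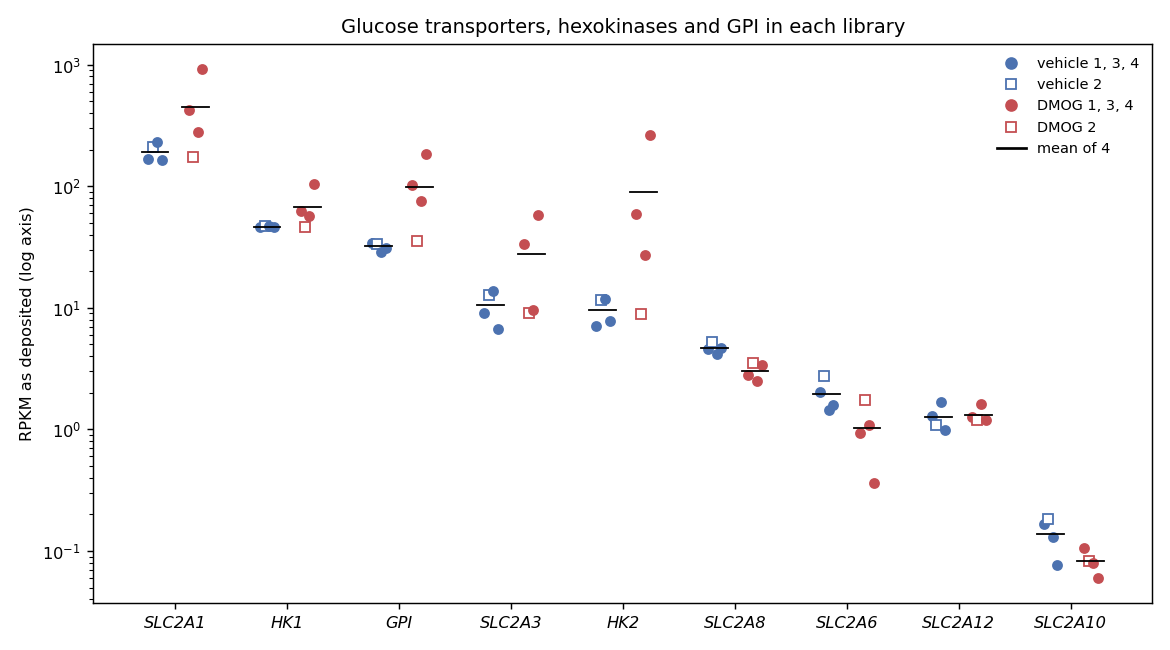
RPKM as deposited (log axis) of 9 of the genes in each library, vehicle in blue and DMOG in red, open squares for replicate 2 and a line for the mean of 4; HK3, with a single read in all, is left out. The open red square of DMOG replicate 2 sits among or beside the vehicle points for SLC2A1, HK1, GPI, SLC2A3 and HK2, while DMOG replicate 4 is the highest point in each of them.

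HK2 had the widest fold range over the 8 libraries among the 8 tested genes. It stood at 7.15, 11.6, 11.7 and 7.83 RPKM in vehicle replicates 1 to 4 and at 59.2, 8.96, 26.9 and 265 RPKM in DMOG replicates 1 to 4. DMOG replicates 1, 3 and 4 were all above the vehicle range, and DMOG replicate 2 was inside it. These levels rest on 1659 to 58697 reads, so counting error is small beside the differences between libraries. Against the vehicle mean, HK2 was at 27.7-fold in DMOG replicate 4, 6.18-fold in replicate 1, 2.81-fold in replicate 3 and 0.936-fold in replicate 2. Over 8 libraries its log2 fold change, DMOG minus vehicle, was 2.35 ± 0.87 (SE), with limma adjusted p = 0.129. Over the 6 libraries HK2 rose by 3.26 ± 0.77 (limma adjusted p = 0.0226), the eighth largest increase of 1526 called. Without DMOG replicate 4 the 6-library value was 2.33 (adjusted p = 0.011). HK2 kept its call under 7 of the 12 alternatives run. HK2 lost it without vehicle replicate 1, 3 or 4 or DMOG replicate 1, and with no filter on low values (limma adjusted p from 0.0514 to 0.0789). It lies on chromosome 2, 75059782 to 75120481 (all gene positions in the results are hg19, from the deposited table).

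HK1 moved less and more evenly. It had 46.6, 46.7, 47.2 and 46.1 RPKM in vehicle replicates 1 to 4 and 62.6, 46.3, 57.3 and 104 RPKM in DMOG replicates 1 to 4. DMOG replicates 1, 3 and 4 were above the narrow vehicle range, and DMOG replicate 2 was inside it. Its log2 fold change was 0.67 ± 0.26 over 8 libraries (limma adjusted p = 0.138). In the 6-library fit HK1 (chromosome 10, 71029756 to 71161637) rose by 0.92 ± 0.25 (limma adjusted p = 0.0335). That call held under 6 of the 12 alternatives run. Among others it was lost with RPKM as deposited (log2 fold change 0.62, adjusted p = 0.0576).

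Hexokinases differ in how they are regulated rather than in the reaction they catalyse, so the balance between HK2 and HK1 was compared within each library, which needs no scaling between libraries. HK2 made up 13.3%, 19.9%, 19.9% and 14.5% of the summed hexokinase RPKM in vehicle replicates 1 to 4, and 48.6%, 16.2%, 32.0% and 71.7% in DMOG replicates 1 to 4. HK1 thus had the higher RPKM in every vehicle library and in DMOG replicates 2 and 3, and HK2 clearly in DMOG replicate 4 alone. In DMOG replicate 1 HK1 and HK2 were nearly equal (HK2 to HK1 ratio 0.946). The ratio of HK2 to HK1 was 0.154 to 0.249 with vehicle and 0.194 to 2.54 with DMOG. The mean log2 ratio was 1.77 higher with DMOG, which an exact two-sided permutation test of 4 against 4 did not separate from the spread (p = 0.0857, adjusted over 2 ratios 0.171). In the 6 libraries the difference was 2.48 and the groups did not overlap, where 3 against 3 cannot go below p = 0.1 (exact permutation p = 0.1, adjusted 0.2).

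SLC2A1 was the most abundant of these transporters in all libraries. It had 167, 210, 231 and 164 RPKM in vehicle replicates 1 to 4 and 422, 173, 279 and 915 RPKM in DMOG replicates 1 to 4. As for HK2, DMOG replicates 1, 3 and 4 exceeded every vehicle library and DMOG replicate 2 did not. The log2 fold change was 1.16 ± 0.48 over 8 libraries (limma adjusted p = 0.15). In the 6-library fit SLC2A1 (chromosome 1, 43391046 to 43424847) rose by 1.66 ± 0.44 (limma adjusted p = 0.0315). SLC2A1 kept this call under 7 of the 12 alternatives run. Its 5′ end overlaps SLC2A1-AS1 on the opposite strand, which had 1.10 to 4.27 RPKM, and the sources used here do not say how strand was handled.

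SLC2A3 was less uniform than SLC2A1. It had 9.11, 12.8, 13.7 and 6.71 RPKM in vehicle replicates 1 to 4 and 33.8, 9.14, 9.53 and 57.7 RPKM in DMOG replicates 1 to 4. DMOG replicates 1 and 4 stood above every vehicle library, while DMOG replicates 2 and 3 were inside the vehicle range. Its log2 fold change was 1.14 ± 0.59 over 8 libraries (limma adjusted p = 0.213) and 1.69 ± 0.63 over 6 (limma adjusted p = 0.0789, 95% interval 0.21 to 3.17), so it did not pass in either. The value rested on single libraries: over the 6 it was 2.42 without DMOG replicate 3 (adjusted p = 0.00446) and 1.12 without DMOG replicate 4 (0.161). SLC2A3 (chromosome 12, 8071824 to 8088892) is closely related to its neighbour SLC2A14, listed at 0.00551 to 0.141 RPKM. Its value is uncertain as far as reads may be shared, because the sources used here do not say what was done with multi-mapping reads.

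The ratio of SLC2A3 to SLC2A1 was 0.0547, 0.0611, 0.0595 and 0.0409 in vehicle replicates 1 to 4. In DMOG replicates 1 to 4 it was 0.0802, 0.0530, 0.0341 and 0.0630, with the lowest and the highest of the 8 values both among DMOG libraries. The mean log2 ratio differed by 0.04 (exact two-sided permutation p = 0.914, adjusted 0.914, n = 4 each). Leaving out 1 library at a time gave differences from -0.14 to 0.27, and the sign turned without vehicle replicate 4 (-0.09) and without DMOG replicates 1 (-0.14) or 4 (-0.02).

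**Figure D2:**
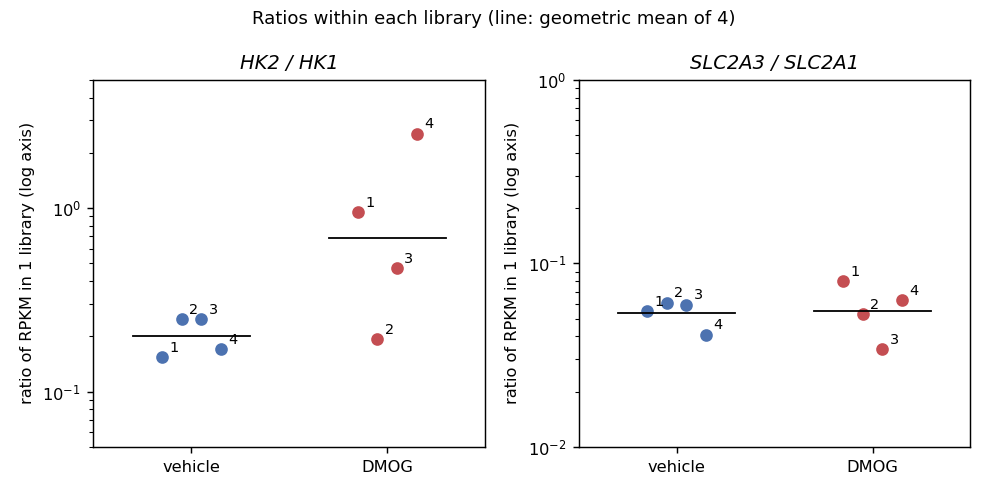
Ratio of HK2 to HK1 (left) and of SLC2A3 to SLC2A1 (right) in each library, numbered by replicate, on log axes that each span 2 decades, with the geometric mean of 4 as a line. HK2 to HK1 ranges from 0.154 to 2.54 and the ratio in DMOG replicate 2 (0.194) sits among the vehicle points, while the values of SLC2A3 to SLC2A1 are interleaved between groups.

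Of the 4 members called over the 6 libraries, GPI kept that call under the most alternatives. It had 34.3, 33.7, 28.9 and 31.1 RPKM in vehicle replicates 1 to 4 and 102, 35.2, 76.0 and 183 RPKM in DMOG replicates 1 to 4. All 4 DMOG libraries were above all 4 vehicle libraries, although DMOG replicate 2 exceeded the highest of them only slightly. Of the genes tested, 2.27% had every DMOG library above every vehicle library on this scale. The log2 fold change of GPI (chromosome 19, 34855645 to 34893318) was 1.58 ± 0.46 over 8 libraries (limma adjusted p = 0.118). In the 6-library fit GPI rose by 2.11 ± 0.32 (limma adjusted p = 0.00786), and this call held under all 12 alternatives run, with adjusted p between 0.00224 and 0.0385.

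SLC2A8, SLC2A6 and SLC2A12 did not pass the test over 8 or 6 libraries. SLC2A8 (chromosome 9, 130159417 to 130170170) had 4.60, 5.26, 4.13 and 4.63 RPKM in vehicle replicates 1 to 4 and 2.78, 3.52, 2.50 and 3.36 RPKM in DMOG replicates 1 to 4. All DMOG libraries were below all vehicle libraries, as for 12.8% of the genes tested on this scale. Scaled by median-ratio factors, its log2 fold change was -0.32 ± 0.14 over 8 libraries (limma adjusted p = 0.152) and -0.26 ± 0.14 over 6 (limma adjusted p = 0.187). With RPKM as deposited the 6-library value was -0.50 (adjusted p = 0.0213), where the median of all tested genes was itself at -0.26.

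SLC2A6 (chromosome 9, 136336216 to 136344276) had 2.02, 2.76, 1.45 and 1.58 RPKM in vehicle replicates 1 to 4 and 0.938, 1.74, 1.08 and 0.365 RPKM in DMOG replicates 1 to 4. DMOG replicates 1, 3 and 4 were below the vehicle range and DMOG replicate 2 was inside it. These levels rest on 29 to 244 reads. All vehicle libraries reached the 1 RPKM of the filter, while DMOG replicates 1 and 4 did not. SLC2A6 thus passed the filter through the vehicle libraries, where it was higher, and its lower values with DMOG are not independent of that. The log2 fold change was -0.46 ± 0.22 over 8 libraries (limma adjusted p = 0.182) and -0.44 ± 0.18 over 6 (limma adjusted p = 0.101, and 0.0388 with RPKM as deposited). A pseudocount of 1 RPKM compresses the change of a gene at this level, and with a pseudocount of 0.1 the 6-library value was -0.82 (adjusted p = 0.121).

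SLC2A12 (chromosome 6, 134308719 to 134373789) had 1.30, 1.08, 1.68 and 0.980 RPKM in vehicle replicates 1 to 4 and 1.26, 1.20, 1.63 and 1.18 RPKM in DMOG replicates 1 to 4. The groups overlapped throughout. Its log2 fold change over 6 libraries was 0.20, with a 95% interval of -0.15 to 0.55 (limma adjusted p = 0.336), and over 8 it was 0.16 (-0.14 to 0.47, adjusted p = 0.413).

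Across the 10 genes, 8 were tested, and limma-trend over the 6 libraries called 4 of them higher (HK2, GPI, SLC2A1 and HK1) and 0 lower. The background was 13.7% of the 11122 tested genes called higher and 16.1% called lower. Their median log2 fold change was 1.29, against -0.00 over all tested genes. With RPKM as deposited 3 were called higher and 2 lower (SLC2A6 and SLC2A8), where 6.13% of all genes were called higher and 34.5% lower. SLC2A6 had passed the filter through the vehicle libraries, where it was higher, so its lower call is not independent of that. Without adjustment, at p under 0.05, the 6-library counts were 5 higher and 1 lower (background 21.6% and 23.3%), or 5 and 2 with RPKM as deposited (8.77% and 42.1%). On the deposited scale the 6 libraries did not overlap between groups for SLC2A1, HK1, HK2 and GPI, which were above vehicle (background 9.99%), and for SLC2A6 and SLC2A8, which were below it (45.6%). Across all 8 libraries limma-trend called 0 of the 8 genes and 0 of the 11122. Unadjusted p was under 0.05 for 4 of the 8 in the higher direction and 1 in the lower (background 14.0% and 16.3%). Limma-voom on recovered reads also called 0 over 8 libraries. Leaving out DMOG replicate 2 alone gave calls for HK2 (log2 fold change 3.14, adjusted p = 0.0116), GPI (2.05, 0.0032), SLC2A1 (1.58, 0.018) and HK1 (0.88, 0.0186). Leaving out DMOG replicate 4 alone lowered the 8-library values to 1.46 for HK2, 1.17 for GPI, 0.68 for SLC2A1, 0.40 for HK1 and 0.62 for SLC2A3, with adjusted p from 0.232 to 0.44. In the 6-library fit the calls of HK2, SLC2A1 and HK1 were lost when any 1 of vehicle replicates 1, 3 and 4 or DMOG replicate 1 was left out, and with no filter on low values, at adjusted p from 0.0514 to 0.102.

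**Figure D3:**
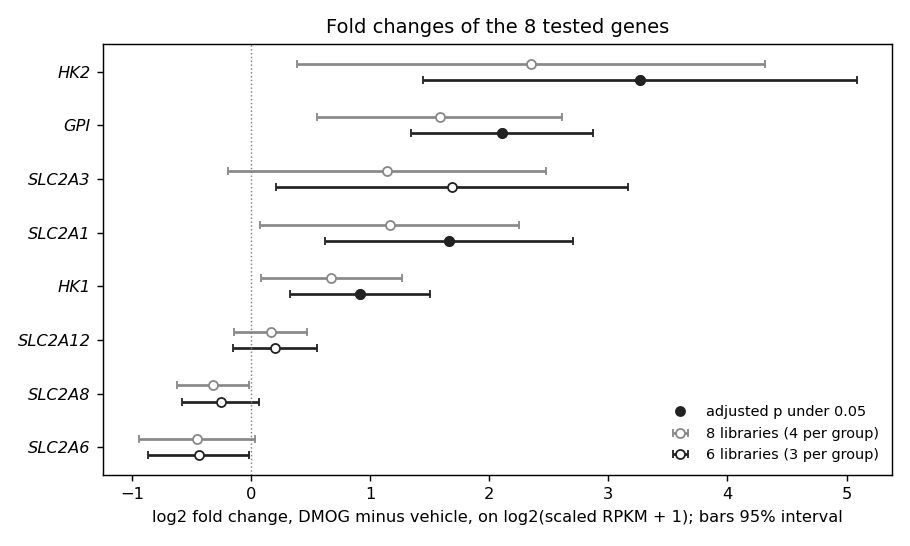
Log2 fold change (DMOG minus vehicle, on log2 of scaled RPKM + 1) of the 8 tested genes over 8 libraries (grey) and over the 6 libraries of the authors' own comparison (black), with 95% intervals; filled points passed an adjusted p of 0.05. HK2, GPI, SLC2A1 and HK1 are filled over 6 libraries and no gene is filled over 8.

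The authors' deposited table of fold changes lists 9 of the 10 genes and not HK3. For HK2 the authors' deposited table gives a ratio of group means of 16.8, an adjusted ratio of 3.67 and an adjusted p of 0.00103. For GPI the authors' deposited table gives a ratio of 4.82, an adjusted ratio of 4.08 and an adjusted p of 1.27e-09. For SLC2A1 the authors' deposited table gives 3.62, 2.96 and 0.000142 in the same order, and for HK1 2.01, 1.91 and 0.00183. HK2 thus has the highest ratio of these genes and GPI the highest adjusted ratio in the authors' deposited table. SLC2A3, which did not pass here, has a ratio of 4.30, an adjusted ratio of 2.46 and an adjusted p of 0.0231 in the authors' deposited table, while SLC2A6, SLC2A8, SLC2A10 and SLC2A12 have adjusted p of 0.106, 0.247, 0.737 and 0.355 in the authors' deposited table. The sources used here do not say how the adjusted ratio was made.

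Several of the genes ranked the DMOG libraries alike. SLC2A1, SLC2A3, HK1, HK2 and GPI all had their highest value in DMOG replicate 4, then in replicates 1, 3 and 2 among the DMOG libraries. SLC2A6 had exactly the opposite order. Of all tested genes 7.14% had the DMOG libraries in the order 4, 1, 3, 2, and of the 1526 called higher over 6 libraries 33.7% did, so this order was shared widely. The depth of DMOG replicate 4 was the lowest of the 8 libraries and that of replicate 2 lay inside the range of the others; whether depth or any culture difference had a part in this order was not tested.

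**Figure D4:**
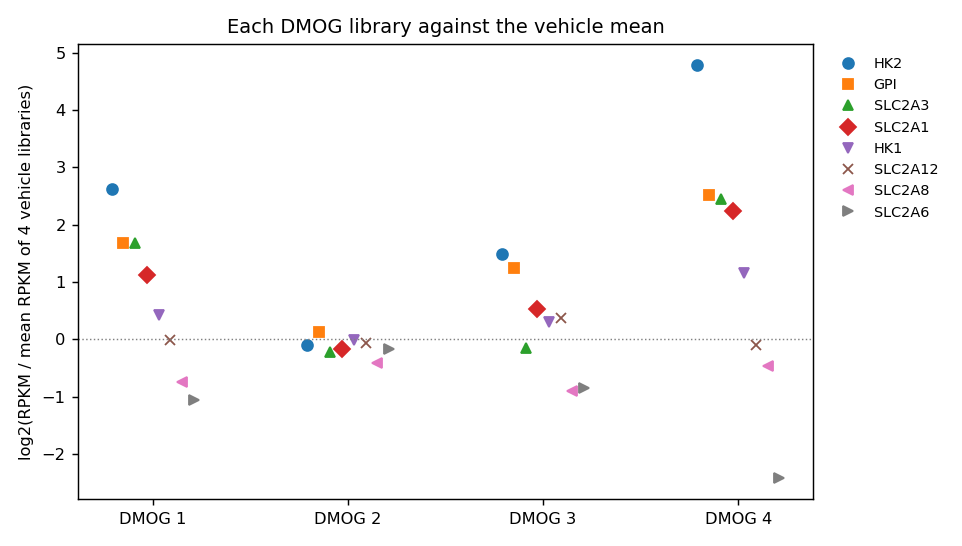
Log2 ratio of RPKM in each DMOG library to the mean of the 4 vehicle libraries, for the 8 tested genes. DMOG replicate 4 spans the widest range, from 0.187-fold for SLC2A6 to 27.7-fold for HK2, and DMOG replicate 2 the narrowest, from 0.757-fold for SLC2A8 to 1.10-fold for GPI.

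By Pearson correlation of log2(RPKM + 1) over the 8 libraries, the gene nearest to SLC2A1 among all tested was HK2, and the gene nearest to HK2 was SLC2A1 (r = 0.995). TOB1 came next for both (r = 0.99 and 0.991), followed by IPMK for SLC2A1 and WASF2 for HK2. HELZ, TOB1 and LINC01128 were nearest to HK1 (r = 0.986 to 0.99), and TMEM91, LCOR and BMF to GPI (0.996 to 0.997). SLC2A3 had looser neighbours, C8orf58, FUT11 and JAK2 (0.954 to 0.983). These correlations describe 8 points that share their treatment and the order of the DMOG libraries, and they carry no test.

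Among the other transporters of the family, 8 further SLC2A genes were listed and 1 passed the filter. SLC2A9, which carries urate, had 25.7, 19.7, 17.6 and 25.1 RPKM in vehicle replicates 1 to 4, the second highest level in the family. It had 6.64, 25.1, 8.90 and 6.05 RPKM in DMOG replicates 1 to 4, with DMOG replicate 2 inside the vehicle range and the others below it. SLC2A9 fell over the 6 libraries by 1.26 ± 0.17 on the log2 scale (limma adjusted p = 0.00568), a call that held under all 12 alternatives to the 6-library fit. Over all 8 libraries its log2 fold change was -0.87 (limma adjusted p = 0.131), and it was called only without DMOG replicate 2. SLC2A1 accounted for 78.7% to 85.1% of the summed RPKM of the family with vehicle and for 89.9%, 80.4%, 91.8% and 92.9% in DMOG replicates 1 to 4. SLC2A9 accounted for 6.47% to 12.2% with vehicle and for 1.42%, 11.7%, 2.92% and 0.614% in DMOG replicates 1 to 4. SLC2A5, the fructose transporter, reached at most 0.261 RPKM, and SLC2A2 and SLC2A7 were listed at 0.

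Of 6 sodium-coupled transporters of the SLC5A family 2 passed the filter and 1 was called higher (background 13.7%). SLC5A10 rose by 0.69 ± 0.17 over 6 libraries (limma adjusted p = 0.0249, lost without vehicle replicate 1, 3 or 4), whereas SLC5A1, the intestinal glucose and galactose carrier, had 0.71 ± 0.39 (limma adjusted p = 0.201, and 0.0326 with the replicate block). Over all 8 libraries the log2 fold change of SLC5A10 was 0.63 (limma adjusted p = 0.118). SLC5A10 had 0.567 to 1.28 RPKM with vehicle and 1.19 to 2.68 with DMOG. It thus passed the filter through the DMOG libraries, where it was higher, and its call is not independent of that. Of 4 other genes of glucose phosphorylation 1 was tested, the ADP-dependent kinase ADPGK, at -0.37 ± 0.17 (limma adjusted p = 0.143, and 0.0378 with RPKM as deposited). HKDC1, a hexokinase-like gene below the filter, had 0.0623 to 0.380 RPKM with vehicle and 0.301 to 2.22 with DMOG.

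Of 4 regulators of glucose uptake 3 were tested, and all 3 were called higher over the 6 libraries (median log2 fold change 0.84), where 13.7% of all tested genes were. With RPKM as deposited 1 of the 3 was called (background 6.13%), and 0 over all 8 libraries. ARRDC4 and TXNIP are arrestin-family proteins that promote removal of glucose transporters from the cell surface, and MLXIP is the glucose-sensing factor that activates both. ARRDC4 had 43.8, 29.2, 27.0 and 54.8 RPKM in vehicle replicates 1 to 4 and 122, 52.9, 63.1 and 112 in DMOG replicates 1 to 4, a log2 fold change of 1.53 ± 0.33 (limma adjusted p = 0.0167). TXNIP rose by 0.84 ± 0.18 (limma adjusted p = 0.0158) and MLXIP by 0.74 ± 0.16 (0.0166). The calls of all 3 were lost without vehicle replicate 1 or DMOG replicate 1, and that of MLXIP also without vehicle replicate 4. ARRDC4 was the one called with RPKM as deposited. The log2 fold changes of ARRDC4, TXNIP and MLXIP over all 8 libraries were 1.34, 0.69 and 0.59 (limma adjusted p = 0.118 for each).

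Hexokinases 1 and 2 dock on the voltage-dependent anion channels of the outer mitochondrial membrane. Of 4 docking-related genes, all tested, 1 was called higher over 6 libraries (background 13.7%) and 0 with RPKM as deposited, which is not read as a result about the list. VDAC2 rose by 0.69 ± 0.17 (limma adjusted p = 0.0273), lost without vehicle replicates 1 or 4 or DMOG replicate 1, with RPKM as deposited and with no filter. VDAC1, VDAC3 and PPIF had 0.27, 0.20 and 0.39 (adjusted p = 0.125, 0.139 and 0.333). VDAC2 had 0.50 over all 8 libraries (limma adjusted p = 0.149).

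Of 12 genes that handle glucose 6-phosphate and neighbouring sugar phosphates outside GPI, 8 were tested over the 6 libraries, with 1 called higher and 3 lower (median log2 fold change -0.29). The background was 13.7% higher and 16.1% lower. On the deposited scale the counts were 0 and 4, against 6.13% and 34.5% of all tested genes, so these counts are not read as a result about the list. GFPT1, which draws fructose 6-phosphate into hexosamine synthesis, had 22.5, 22.4, 27.5 and 25.8 RPKM in vehicle replicates 1 to 4. In DMOG replicates 1 to 4 it had 5.85, 24.3, 11.3 and 4.70 RPKM, a fall of 1.47 ± 0.26 on the log2 scale (limma adjusted p = 0.0103). G6PC3, the widely expressed glucose-6-phosphatase, fell by 1.04 ± 0.14 (limma adjusted p = 0.00612). The calls of GFPT1 and G6PC3 held under all 12 alternatives to the 6-library fit. Over all 8 libraries GFPT1 had -1.09 and G6PC3 -0.89 (limma adjusted p = 0.118 for each), and both were called only without DMOG replicate 2. TIGAR, a fructose-bisphosphatase that restrains glycolysis, fell by 0.74 ± 0.19 (limma adjusted p = 0.0296). PGM1, which links glucose 6-phosphate to glycogen, rose by 0.67 ± 0.21 (limma adjusted p = 0.0482). PGM2, a related phosphoglucomutase, had 0.36 ± 0.17 (limma adjusted p = 0.142, and 0.0468 with the replicate block). The calls of TIGAR and PGM1 were lost under 5 and 7 of the 12 alternatives, among them leaving out vehicle replicate 1, 3 or 4 or DMOG replicate 1. TIGAR had -0.44 and PGM1 0.50 over all 8 libraries (limma adjusted p = 0.217 and 0.134).

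**Figure D5:**
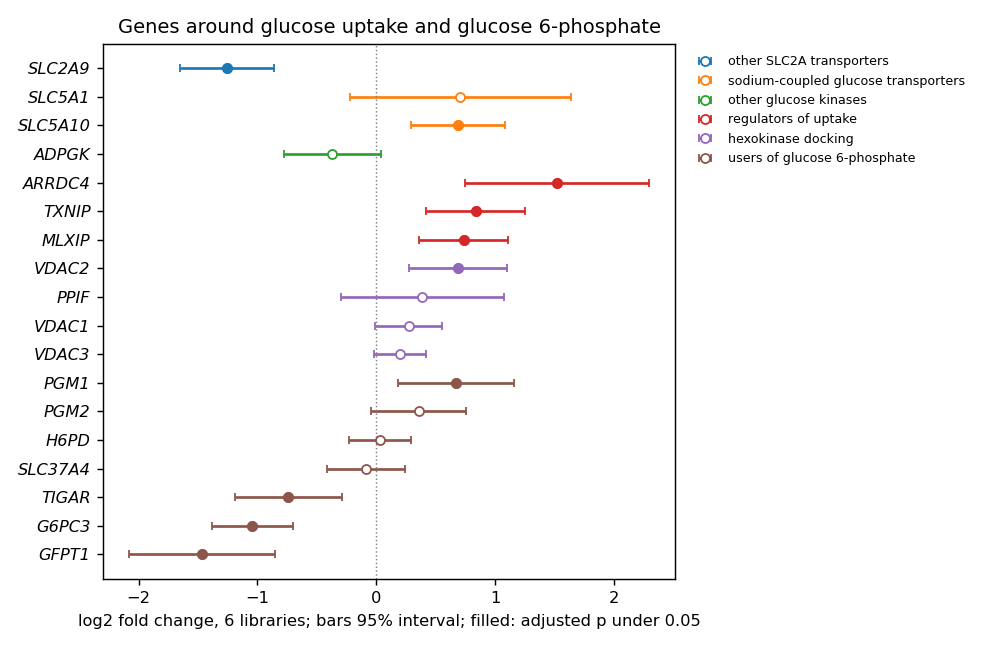
Log2 fold change over the 6 libraries, with 95% intervals, of genes around glucose uptake and glucose 6-phosphate, coloured by list; filled points passed an adjusted p of 0.05. SLC2A9 (-1.26) and GFPT1 (-1.47) lie furthest to the left and ARRDC4 (1.53) furthest to the right.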

How the data were processed

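The authors deposited RPKM values for 25369 genes in 8 libraries under a name that announces raw counts. The submitters' processing notes list, without roles or order, HTSeq 0.6.1 and TopHat2 2.0.13 with Bowtie2 2.2.3.0. The notes name both hg19 and hg38. Chromosome names in the table are those of hg19. The authors' deposited table of fold changes holds, per the file headers, normalized group means (a signal scale), their ratio, log2 values of the ratio and p-values with adjusted p for 13424 genes. Its group means were recovered from replicates 1, 3 and 4 of each group with a weight near 0 for replicate 2.

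RPKM times gene length gave whole reads within 0.01 reads for 100% of the values above 0 in genes with 1 listed length, and hence each library's depth. RPKM were divided by median-ratio factors, and limma-trend (limma 3.58.1, R 4.3.3, robust, two-sided) was run on log2(RPKM + 1) over all genes with 1 RPKM or more in at least 4 libraries, with p-values adjusted by the Benjamini-Hochberg method and called under 0.05. Fold changes on this scale understate the change of low genes, and means with SD are RPKM as deposited. As deposited, the median log2 fold change of all tested genes was -0.18 over 8 libraries and -0.26 over 6; with the factors both were within 0.01 of 0. Ratios within a library were tested by exact permutation (SciPy 1.17.1). The fit was tested on simulated data. The simulation drew every library with a spread taken from the vehicle libraries. It therefore does not show how the fit performs with the wider spread among the DMOG libraries. All 10 genes are named whatever their values, list genes where they passed over the 6 libraries or for their level, and nearest patterns as the 3 highest correlations. The name TIGAR was matched through an older symbol. Some genes counted in the lists are not reported here. The genes, lists and tests were chosen with earlier results of these data known.

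Replicate numbers were checked for pairing by correlating how libraries of the same number departed from their group mean. Over the 6 libraries they were 0.47, 0.40 and 0.34, and each vehicle library correlated best with the DMOG library of its own number. With so few numbers such a match can also arise by chance. The pairing is therefore not established, and the replicate block is given as an alternative only. Over 8 libraries the correlations ran from -0.02 to 0.53, and replicates 1 and 2 did not correlate best with their own number, so the numbers are not taken to pair all 8.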

Additional observations from a re-analysis of the deposited data

Results flagged for a closer look

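Of 24 groups of 4 values examined, 2 had a single library set apart from the other 3 by a gap that chance gives in about 1 of 20 groups. Among 24 groups such gaps can arise by chance alone. SLC2A12 had 1.63 RPKM in DMOG replicate 3, with the other DMOG libraries at 1.18 to 1.26 RPKM. HK3 had 0.00954 RPKM in DMOG replicate 2, which is 1 read, with the other DMOG libraries at 0. A lone read always gives such a gap, so the rate of 1 in 20 does not hold for HK3.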

How the results depend on the processing

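Of 208 alternative values for the 8 tested genes, 183 kept their direction and their side of the threshold, 16 lost a call, 9 gained one and 0 changed sign. Most of the 208 belong to values that were not called, which could not lose a call. All 16 losses were among the 4 genes called over the 6 libraries. Of 12 alternatives each, HK1 kept its call under 6, HK2 under 7, SLC2A1 under 7 and GPI under 12. Over 8 libraries, leaving out 1 library at a time gave 0 to 1724 genes called higher and 0 to 1970 lower, with every call coming from the fit without DMOG replicate 2. Over the 6 libraries it gave 379 to 2224 higher and 539 to 2527 lower, against 1526 and 1792, and RPKM as deposited gave 682 higher and 3836 lower. The log2 difference in the HK2 to HK1 ratio ran from 1.14 (without DMOG replicate 4) to 2.38 (without DMOG replicate 2), and that in the SLC2A3 to SLC2A1 ratio from -0.14 to 0.27. With the replicate block the 6-library fit called 2181 genes higher and 2337 lower, and HK2 (adjusted p = 0.0205), GPI (0.00829), SLC2A1 (0.0326) and HK1 (0.0266) remained called, with no other of the 8 genes gaining a call. Among the other genes named, SLC5A1 and PGM2 gained a call with the block. Over 8 libraries it gave 0 calls, and the HK2 to HK1 ratio p = 0.25 by exact sign changes of 4 pairs, where 0.125 is the smallest possible. Limma-voom on recovered reads was added after seeing the data and called HK2, GPI, SLC2A1 and HK1 over 6 libraries. Count models that need deposited counts were not run. Genes under about 30 reads in every library (SLC2A10, HK3) are too low for a comparison at this depth. SLC2A6 was as low in DMOG replicate 4 alone (29 reads), so its value in that library is imprecise.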
